A study of Tribolium castaneum with 9 samples.

Results

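The fat body of adult red flour beetles (Tribolium castaneum, a pest of stored grain) labelled as treated with carbonyl sulfide (COS), a fumigant gas, was set against the whole body of untreated adults. The comparison, chosen by the labels of its libraries, took 6 of the 9 libraries of the study, 3 of COS fat body and 3 of control whole body, as the columns of expected counts for these libraries in the deposited table. All 9 libraries came from adults of a phenotype labelled Susceptible, and the remaining 3, of COS Malpighian tubules, are used here only as a second treated organ. The sources used here give no dose, exposure time, sex or number of animals in a library, and do not say what 70 stands for in the fat body titles. Tissue and treatment change together between these groups, so their parts in any difference cannot be told apart.

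The insect fat body combines tasks that vertebrates divide between liver and adipose tissue. Its cells keep triglyceride in lipid droplets and glycogen as reserves, interconvert sugars, amino acids and lipids, and secrete most of the proteins of the hemolymph, among them lipophorins that carry lipid, yolk proteins, protease inhibitors and antimicrobial peptides. Adipokinetic hormone calls on its reserves when energy is needed, and insulin signalling governs their build-up. A whole body holds fat body too, so a higher level in a dissected fat body is a larger share of the RNA than in an average of all organs. Here the dissected fat body was also the treated group, so such a level may reflect tissue, treatment or both.

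The deposited table lists 5467 genes. Each differs by 1 or more on the log2 scale, up or down, in 1 or more of the 3 comparisons of the authors' deposited table, so every gene had been selected on these same samples. The libraries of all 3 groups entered 1 fit. For fat body over control, 3211 of them reached that size in the authors' deposited table. Recovered library totals were 16125682, 18174747 and 16225672 reads for COS fat body and 13435869, 13898838 and 14803877 reads for controls, of which the listed genes took 67% to 67.3% in COS fat body and 58% to 60.9% in controls. Levels are given as CPM, read counts scaled to these totals with TMM factors (counts per 1e6 reads), in the order of libraries 1, 2 and 3 of each group. The gene called most abundant in a list is the one with the most reads by CPM, which is not corrected for gene length, except in the ranking by FPKM. Differences are log2 fold changes of COS fat body over control ± an approximate SE, with p from the quasi-likelihood F test of edgeR adjusted by Benjamini-Hochberg over 5358 genes, and a gene passed at an adjusted p under 0.05. No pair of libraries of a group agreed within sampling noise (chi-square per degree of freedom 61.2 to 142 within COS fat body and 21.2 to 89.6 within controls). Nothing in the labels states that the replicates are separate cultures or animals, so the p-values measure the spread between these libraries only.

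Against the control whole body, 1726 genes passed as higher in COS fat body and 1978 as lower, which is 69.1% of the genes tested in all, 32.2% upward and 36.9% downward. All 3 fat body libraries stood above all 3 controls in 36.5% of the genes and below them in 41.5%. The median log2 fold change was -0.22. Every count of list members below is to be read against these shares. For COS fat body over COS Malpighian tubules the shares were 79.8% in all, 38.8% upward and 41% downward, with a median of -0.24. For fat body over control, 2861 of the 3122 tested genes at 1 or more in the authors' comparison passed. Of the 2236 tested genes under 1 there, 843 (37.7%) passed. The listed genes were selected on these same libraries, and the adjusted p-values do not allow for that. The shares hold for the listed genes only.

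**Figure D1:**
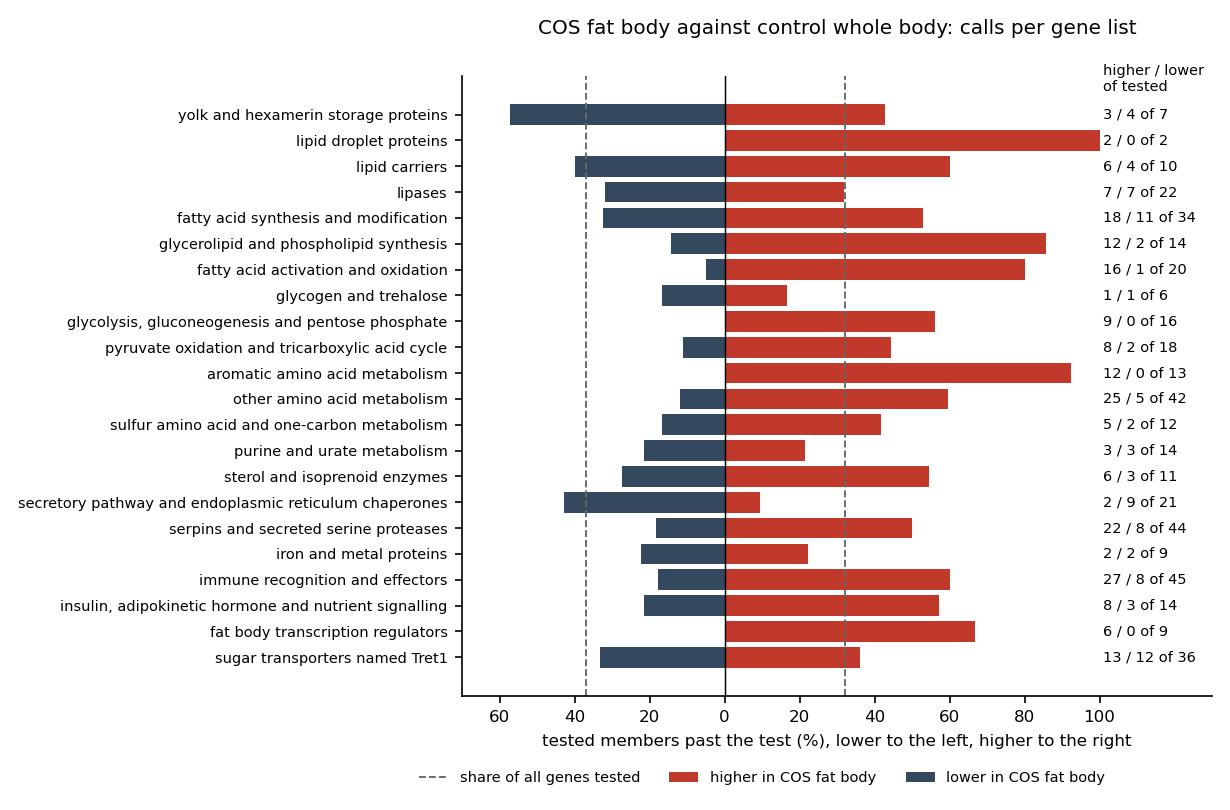
Share of the tested members of each gene list that passed as higher (right) or lower (left) in COS fat body than in control whole body, in percent, with the counts at the right and dashed lines at the shares over all genes tested (32.2% higher, 36.9% lower). Aromatic amino acid metabolism (12 of 13 higher), glycerolipid synthesis (12 of 14) and fatty acid oxidation (16 of 20) reach farthest to the right among lists of more than 10 tested genes, and only 2 of 21 secretory pathway genes lie to the right.

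The libraries labelled fat body held the RNA of known fat body products. Vitellogenin LOC660042, apolipophorins LOC663181 and the adipokinetic hormone receptor (Akhr) stood above COS tubules by 4.41, 4.77 and 2.97 on the log2 scale, and their levels are given below. Not all genes tied to fat body did so. Over COS tubules 3 of 7 yolk and hexamerin genes and 1 of 2 lipid droplet genes passed as higher, and none as lower. HEX1A, HEX1B, HEX2 and HEX3 fell against the control whole body. Marker lists of other cell types showed that the fat body libraries also held RNA typical of muscle. The 40 muscle markers summed to 5.67%, 5.07% and 5.86% of all reads in COS fat body, against 2.68%, 2.74% and 2.55% in controls and 0.395% to 0.458% in COS tubules. Of these 40, 23 rose, 9 fell and none was at 0 in COS fat body. Paramyosin (LOC659309), a core protein of invertebrate thick filaments, stood at 9144, 8395 and 10429 CPM in COS fat body, against 2541, 2773 and 2569.8 CPM in controls (log2 fold change 1.83 ± 0.16, adjusted p = 7.02e-05). The falls came from other muscle genes, such as flightin (LOC657758, -2.59 ± 0.52), a protein of flight muscle filaments, and a myosin light chain (LOC663846, -6.33 ± 0.73). A troponin C gene (LOC659336), a calcium sensor of contraction, stood at 3.8, 0.966 and 0.473 CPM in COS fat body, against 465, 527 and 354 CPM in controls (log2 fold change -8.01 ± 1.06, adjusted p = 0.000351). Muscle markers thus moved in both directions at once, higher for paramyosin and lower for flightin and troponin C.

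Hemocyte markers, for blood cells, summed to 0.0331%, 0.0429% and 0.0529% of reads in COS fat body, against 0.0247%, 0.0184% and 0.0172% in controls. Of 5 tested members 4 rose, hemocytin (LOC659879) by 1.49 ± 0.29. Oenocyte markers, for the cells that make cuticular hydrocarbons, summed to 0.0367%, 0.0375% and 0.0363% in COS fat body, against 0.147%, 0.107% and 0.107% in controls, with 8 higher (5 without control replicate 1 or fat body replicate 3) and 7 lower of 20. The most abundant of them, the cytochrome P450 Cyp4g7, which belongs to the family of insect hydrocarbon-forming enzymes, stood at 34.1, 14.6 and 24.6 CPM in COS fat body, against 466, 335 and 376 CPM in controls (log2 fold change -4.0 ± 0.38, adjusted p = 8.47e-05). The list and its sum do not hold Cyp4g14, a P450 of the same subfamily that was more abundant than Cyp4g7 and is given below. Testis and sperm markers summed to 0.174%, 0.0366% and 0.0753% in COS fat body, against 0.241%, 0.239% and 0.576% in controls. Fat body replicate 1 was the highest of its group and control replicate 3 the highest of all. The most abundant of them, outer dense fiber protein 2 (LOC662898), stood at 398, 43.3 and 160.2 CPM in COS fat body, against 429, 442 and 1016 CPM in controls (log2 fold change -1.65 ± 0.74, adjusted p = 0.0702). Of 31 testis markers 1 rose, outer dense fiber protein 3 (LOC662573), and 14 fell, but 28 fell without fat body replicate 1, 8 without fat body replicate 2, 7 without fat body replicate 3 and 6 without control replicate 3. No tested hemocyte, oenocyte or testis marker was at 0 over COS fat body.

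Digestive genes of the gut summed to 0.39% to 0.468% in COS fat body and 0.729% to 0.816% in controls, with 14 higher and 26 lower of 58. The most abundant, an aminopeptidase N-like protein (LOC661831), fell by 1.04 ± 0.36 on the log2 scale. It did not pass with control replicate 3 or any one of the fat body replicates left out (-1.16 to -0.45, adjusted p 0.0509 to 0.173). Malpighian tubule markers summed to 0.259% to 0.303% in COS fat body and 0.308% to 0.317% in controls, with 17 higher and 21 lower of 53, against 0.82% to 0.982% in the tubules themselves. The proton ATPase proteolipid subunit (LOC656327) did not pass (log2 fold change 0.30 ± 0.14, adjusted p = 0.0837), but passed as higher under other ways of scaling libraries, namely RLE factors, the authors' size factors or DESeq2 (0.47 to 0.50, adjusted p 0.0227 to 0.0284) and without tubule replicate 2 (0.31, adjusted p = 0.0387). Cuticle genes had 22 higher and 3 lower of 42 (14 higher without control replicate 3 and fat body replicate 1 together), led in level by an endocuticle glycoprotein (LOC662608) that did not pass (log2 fold change 0.90 ± 0.38, adjusted p = 0.0603). This gene passed as higher in a fit of the 6 COS fat body and control libraries alone (0.89, adjusted p = 0.00303), without tubule replicate 1 or 3 (0.90 in both cases, adjusted p = 0.0389 and 0.00219), and with RLE factors, the authors' size factors or DESeq2 (1.06 to 1.1, adjusted p 0.0213 to 0.0394). Sensory genes had 10 higher and 29 lower of 50, with chemosensory protein 11 (Csp11) at 1.12 ± 0.32 (adjusted p = 0.0125). Nervous system genes had 15 higher and 16 lower of 77. The most abundant, neurexin-4 (LOC661246), stood at 0.66 ± 0.15 on the log2 scale. It entered the list by its description, and the cells that express it were not checked. The 2 ovary genes tested did not pass, among them the vitellogenin receptor (LOC657346, log2 fold change -1.33 ± 0.75, adjusted p = 0.135), which passed as lower without fat body replicate 1 (-2.29, adjusted p = 0.0233). The single trachea marker, trachealess (LOC655476), rose by 1.19 ± 0.21. In such bulk samples, fewer cells of a type and less RNA per cell cannot be told apart. The part of these other cells in the results below was not tested.

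**Figure D2:**
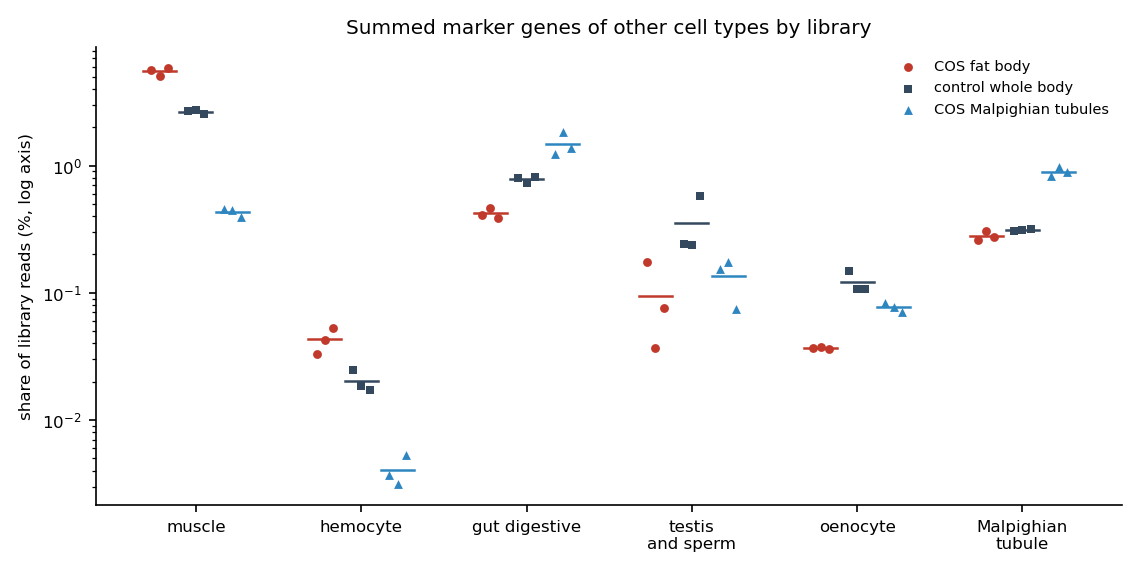
Summed reads of 6 lists of marker genes as a percentage of all reads of a library, on a log axis, with 1 point per library and a bar at the mean of COS fat body, control whole body and COS Malpighian tubules. Muscle and hemocyte markers are higher in all 3 fat body libraries than in all 3 controls, gut, testis and oenocyte markers are lower, and tubule markers are highest in tubules.

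Storage proteins split by family, with the yolk precursors higher and most hexamerins lower. Of the 7 listed genes, 3 passed as higher and 4 as lower (median log2 fold change -2.02). The list as a whole took 1.42%, 0.708% and 0.842% of reads in COS fat body, against 0.232%, 0.176% and 0.141% in controls. Vitellogenin LOC660042, a precursor of yolk that fat body secretes for uptake by oocytes, stood at 12043, 6082 and 7682 CPM in COS fat body, against 741, 494 and 386 CPM in controls. The groups did not overlap, and fat body replicate 1 was the highest of the 6 libraries (log2 fold change 3.99 ± 0.36, adjusted p = 7.31e-05). Vitellogenin LOC658755 stood at 2896, 1050.5 and 1263 CPM in COS fat body, against 482, 369 and 181 CPM in controls, again with no overlap (log2 fold change 2.34 ± 0.46, adjusted p = 0.00217). Over COS tubules the differences of these genes were 4.41 and 3.65.

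Hexamerins are hemolymph proteins that insects lay up as an amino acid store. HEX5 was the only one of the 5 listed hexamerins that rose, at 116, 110.1 and 151 CPM in COS fat body, against 65.8, 59.2 and 57.8 CPM in controls (log2 fold change 1.05 ± 0.20, adjusted p = 0.00197). HEX1A fell, at 122, 26.6 and 51.2 CPM in COS fat body, against 311, 281 and 318 CPM in controls (log2 fold change -2.19 ± 0.50, adjusted p = 0.00448). HEX1B fell too, at 64, 26.6 and 35.5 CPM in COS fat body, against 253, 204 and 235 CPM in controls (log2 fold change -2.46 ± 0.40, adjusted p = 0.000894). The low values came from fat body replicates 2 and 3, and the highest fat body library remained under the lowest control for both genes. HEX2 stood at 54.8, 15.1 and 33.6 CPM in COS fat body, against 159, 137 and 127 CPM in controls and fell by 2.03 ± 0.50 on the log2 scale (adjusted p = 0.00647). HEX3 was scarce, at 1.07, 0.909 and 0.878 CPM in COS fat body, against 4.67, 3.67 and 3.32 CPM in controls, and fell by 2.02 ± 0.54 (adjusted p = 0.00941). HEX1A, HEX1B, HEX2 and HEX3 did not pass over COS tubules. Among the storage proteins the vitellogenins and HEX5 thus stood with the fat body, and the remaining hexamerins were more abundant in the untreated whole body. All 7 calls of the list were made whichever replicate was left out and under each scaling tried.

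Lipid storage and transport genes were mostly higher in COS fat body. Both genes annotated as lipid storage droplets surface-binding protein 1, a perilipin that coats lipid droplets and gates lipolysis in Drosophila, rose. LOC659061 stood at 671, 948 and 853 CPM in COS fat body, against 425, 280.3 and 295 CPM in controls (log2 fold change 1.31 ± 0.25, adjusted p = 0.00195). LOC660518 stood at 565, 470 and 305 CPM in COS fat body, against 138, 219 and 97.9 CPM in controls (log2 fold change 1.56 ± 0.36, adjusted p = 0.00525). Neither gene overlapped between the groups. Against COS tubules they parted, with LOC659061 higher by 3.9 and LOC660518 at -0.36 ± 0.36, adjusted p = 0.367.

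Lipid carriers had 6 higher and 4 lower of 10. They took 0.649%, 0.955% and 1.56% of reads in COS fat body, against 0.611%, 0.495% and 0.461% in controls. The apolipophorins gene LOC663181, whose product is the protein core of lipophorin, stood at 2951, 5644 and 11472 CPM in COS fat body, against 2652, 2041 and 2059.5 CPM in controls (log2 fold change 1.57 ± 0.50, adjusted p = 0.0209). The fat body libraries ranged widely for it, replicate 3 being highest, and replicate 1 stood close above the highest control. It did not pass with fat body replicate 3 left out (log2 fold change 0.94, adjusted p = 0.0907). The same held with control replicate 2 left out (1.48, adjusted p = 0.0645) or control replicate 3 (1.58, adjusted p = 0.0551). An apolipophorins-like gene (LOC107398075) was less variable, at 2596, 2523 and 4035 CPM in COS fat body, against 1243, 1009 and 908 CPM in controls (log2 fold change 1.53 ± 0.26, adjusted p = 0.00102). Microsomal triglyceride transfer protein (LOC662420), which loads lipid onto lipoproteins in the endoplasmic reticulum, rose by 1.01 ± 0.16, and apolipoprotein D (LOC659652), a lipocalin, by 1.64 ± 0.24. A fatty acid transport protein (LOC656026) rose by 1.07 ± 0.20 and sterol carrier protein X-related thiolase (Scpx) by 1.04 ± 0.16. Lower was a liver-type fatty acid-binding protein (LOC658268), a cytosolic carrier, at 205, 268 and 200.2 CPM in COS fat body, against 671, 602 and 672 CPM in controls (log2 fold change -1.53 ± 0.28, adjusted p = 0.00162). The other lower carriers were an apolipoprotein D-like gene (LOC107398601, -1.75 ± 0.29), an acyl-CoA-binding protein (LOC663684, -1.56 ± 0.40) and a further fatty acid transport protein (LOC660540, -0.81 ± 0.27). LOC660540 did not pass with any one of the controls or fat body replicate 1 or 2 left out (-0.83 to -0.70, adjusted p 0.0551 to 0.069).

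**Figure D3:**
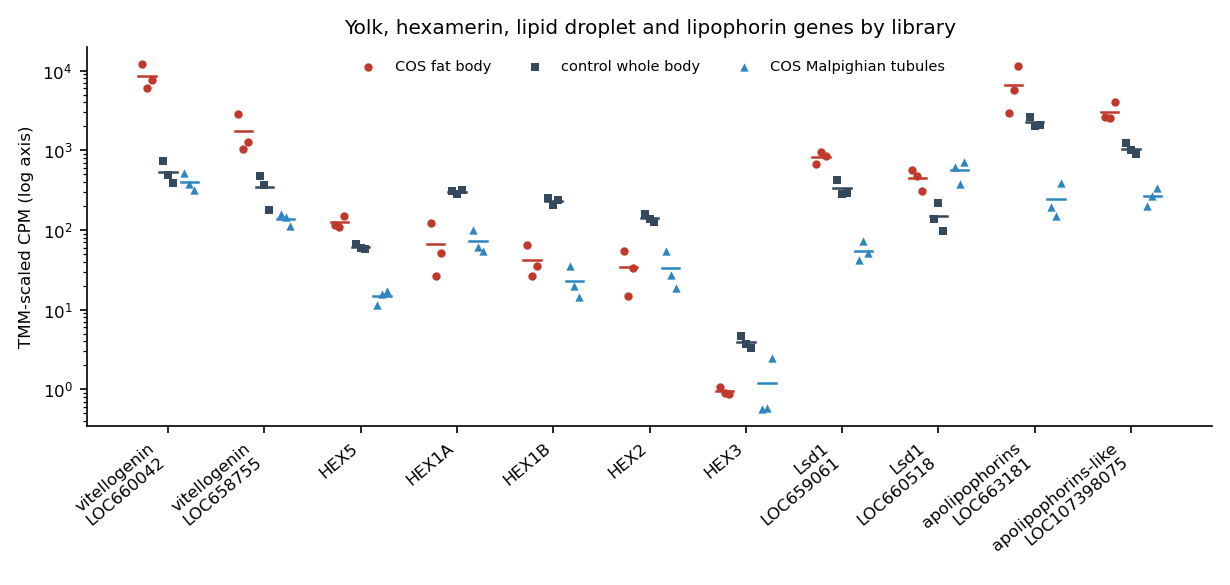
TMM-scaled CPM of 11 storage, lipid droplet and lipophorin genes in each library, on a log axis, with bars at the group means of COS fat body, control whole body and COS Malpighian tubules (n = 3 each). The vitellogenins, HEX5, both lipid droplet genes and both apolipophorins stand above the controls in all 3 fat body libraries, and HEX1A, HEX1B, HEX2 and HEX3 stand below them.

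Lipases, which release fatty acids from glycerides, had 7 higher and 7 lower of 22, shares close to those of all genes (median 0.18). A gene named pancreatic triacylglycerol lipase-like (LOC656735) stood at 133, 161 and 162 CPM in COS fat body, against 24.2, 27 and 22.6 CPM in controls (log2 fold change 2.63 ± 0.32, adjusted p = 0.000255). A lipase 3 (LOC664277) rose by 1.8 ± 0.21. A patatin-like phospholipase domain gene (LOC659311), of the family of adipose triglyceride lipases, stood at 354, 333 and 297 CPM in COS fat body, against 177, 171 and 152 CPM in controls (log2 fold change 0.98 ± 0.16, adjusted p = 0.00086). At the other end, 2 genes named lipase member K had no count in any fat body library. LOC660826 had 0 counts over the COS fat body libraries and 260 over the controls, at least 104-fold lower taking 3 counts over the group as the floor. LOC103312138 had 0 counts over the COS fat body libraries and 77 over the controls, at least 30.8-fold lower. The median was 0.18 also with these genes at their bound, and the split of reads among such related lipases is uncertain.

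Fatty acid synthesis and modification genes split within their families. Of 34 tested members 18 rose and 11 fell (median 0.61). The list took 0.391%, 0.368% and 0.413% of reads in COS fat body, against 0.643%, 0.577% and 0.657% in controls. The members most abundant in controls were among those that fell. Fatty acid synthase, which builds palmitate from malonyl-CoA, had 1 gene higher and 6 lower of 7. Fatty acid synthase LOC103314884 stood at 737, 597 and 1123 CPM in COS fat body, against 175, 189.5 and 211 CPM in controls (log2 fold change 2.09 ± 0.28, adjusted p = 0.000358). LOC662899, the most abundant of the family in controls, stood at 163, 49.8 and 84.1 CPM in COS fat body, against 1460, 1627 and 2551 CPM in controls (log2 fold change -4.25 ± 0.45, adjusted p = 0.00013). LOC659179 stood at 36.6, 21.7 and 42.3 CPM in COS fat body, against 884, 583 and 552 CPM in controls (log2 fold change -4.33 ± 0.36, adjusted p = 5.77e-05). In every case the groups did not overlap. The deepest fall was that of LOC658944 (-4.7 ± 0.34), at 0.8, 0.738 and 1.42 CPM in COS fat body, against 32.9, 21.5 and 22.6 CPM in controls. Summed over the 7 genes, which carry the same description and may share reads, the level was 1022, 711 and 1334 CPM in COS fat body, against 3616, 3129 and 4108 CPM in controls.

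Thus LOC103314884 made up most of the synthase reads of the fat body, whereas LOC662899 and LOC659179 made up most of those of the whole body. The summed oenocyte markers given above were lower in the same libraries. Of the 16 tested fatty acyl-CoA reductases among them, which make fatty alcohols, 5 rose and 6 fell. The 17 listed reductases summed to 343, 352 and 355 CPM in COS fat body, against 806, 597 and 612 CPM in controls. The part of oenocytes in the fall of the synthases was not tested. Desaturases, which put double bonds into acyl chains, had 5 higher and 2 lower of 10, with a summed level of 985, 902 and 828 CPM in COS fat body, against 372, 429 and 432 CPM in controls. TcasZ9desA stood at 337, 169.8 and 227 CPM in COS fat body, against 24.6, 14 and 54.6 CPM in controls (log2 fold change 2.98 ± 0.50, adjusted p = 0.000996). Z9desB stood at 357, 384 and 281 CPM in COS fat body, against 41.2, 79.7 and 32.9 CPM in controls (log2 fold change 2.73 ± 0.32, adjusted p = 0.000204). Acyl-CoA desaturase 1 (LOC662865) fell, at 14.9, 1.59 and 0.203 CPM in COS fat body, against 57.8, 66.9 and 89.4 CPM in controls (log2 fold change -3.68 ± 1.07, adjusted p = 0.0143), with fat body replicate 1 well above replicates 2 and 3. Elongases, which lengthen acyl chains, had 8 higher and 3 lower of 12.

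ATP-citrate synthase (LOC656728), which makes cytosolic acetyl-CoA, rose by 0.79 ± 0.17 (adjusted p = 0.0036), and an NADP-dependent malic enzyme (LOC657686), a source of NADPH, by 0.61 ± 0.16 (adjusted p = 0.00889). Acetyl-CoA carboxylase (LOC658362), which makes malonyl-CoA, stood at 302, 275 and 452 CPM in COS fat body, against 241, 205 and 225 CPM in controls (log2 fold change 0.62 ± 0.20, adjusted p = 0.0239). It did not pass with control replicate 2, control replicate 3 or fat body replicate 3 left out (0.37 to 0.67, adjusted p 0.0534 to 0.0878), nor with upper-quartile factors or library totals alone (0.48 and 0.35, adjusted p = 0.0572 and 0.145).

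Genes that build glycerolipids and phospholipids were higher in COS fat body with few exceptions, 12 higher and 2 lower of 14 tested (median 1.31). Choline/ethanolamine kinase (LOC658014), which opens the synthesis of phosphatidylcholine and phosphatidylethanolamine, stood at 492, 581 and 440.1 CPM in COS fat body, against 174, 159 and 165 CPM in controls (log2 fold change 1.6 ± 0.15, adjusted p = 7.45e-05). Phosphatidylserine decarboxylase (LOC662070), which makes phosphatidylethanolamine in mitochondria, stood at 209, 189 and 121 CPM in COS fat body, against 34.8, 36.2 and 38.5 CPM in controls (log2 fold change 2.24 ± 0.22, adjusted p = 9.42e-05). For both genes the lowest fat body library stood far above the highest control. Along the route to triglyceride, glycerol-3-phosphate acyltransferase (LOC656036) rose by 1.3 ± 0.18, the lipin LPIN3 (LOC664486), a phosphatidate phosphatase, by 1.33 ± 0.16, and diacylglycerol O-acyltransferase (LOC664028), which adds the last acyl chain, by 1.63 ± 0.21. The exceptions were 2-acylglycerol O-acyltransferases, enzymes that add an acyl chain to monoacylglycerol. Counted together with diacylglycerol O-acyltransferases, they had 4 higher and 2 lower of 6 tested. LOC664032 fell by 0.51 ± 0.16, a call lost without any one of the controls or without fat body replicate 3 (-0.52 to -0.42, adjusted p 0.0503 to 0.0776), which left 1 lower gene. LOC664042 stood at 38.6, 29.7 and 28.2 CPM in COS fat body, against 174, 143 and 121 CPM in controls (log2 fold change -2.18 ± 0.25, adjusted p = 0.000186). Over COS tubules 9 of the 14 were higher and 2 lower.

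Fatty acid oxidation genes rose together by moderate amounts: 16 higher and 1 lower of 20 (median 0.79). They took 0.727%, 0.88% and 0.92% of reads in COS fat body, against 0.643%, 0.55% and 0.528% in controls. The alpha subunit of the mitochondrial trifunctional enzyme (LOC662336), which runs the later steps of beta-oxidation of long chains, stood at 1002, 1245 and 1381 CPM in COS fat body, against 576, 505 and 559.6 CPM in controls (log2 fold change 1.15 ± 0.17, adjusted p = 0.000522). Its beta subunit (LOC664130) rose by 0.88 ± 0.16. Mitochondrial 3-ketoacyl-CoA thiolase (LOC656773), which splits off acetyl-CoA, stood at 856, 1110 and 1174 CPM in COS fat body, against 505, 406 and 426 CPM in controls (log2 fold change 1.23 ± 0.19, adjusted p = 0.000695). The groups were apart for each of these. Medium-chain (LOC659081) and very long-chain (LOC659957) acyl-CoA dehydrogenases rose by 0.88 and 0.76, and the oxidoreductase that passes their electrons to ubiquinone (LOC658421) by 1.05. An acyl-CoA thioesterase (LOC657079), which frees the acid from its CoA ester, was the exception, at 2.87, 2.27 and 2.43 CPM in COS fat body, against 21.5, 24 and 21.1 CPM in controls (log2 fold change -3.13 ± 0.28, adjusted p = 7.02e-05). Over COS tubules 19 of the 20 were higher. The rises ran from 0.46 to 1.23. Muscle, where these enzymes are also abundant, had its markers higher in the same libraries, and its part was not tested.

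**Figure D4:**
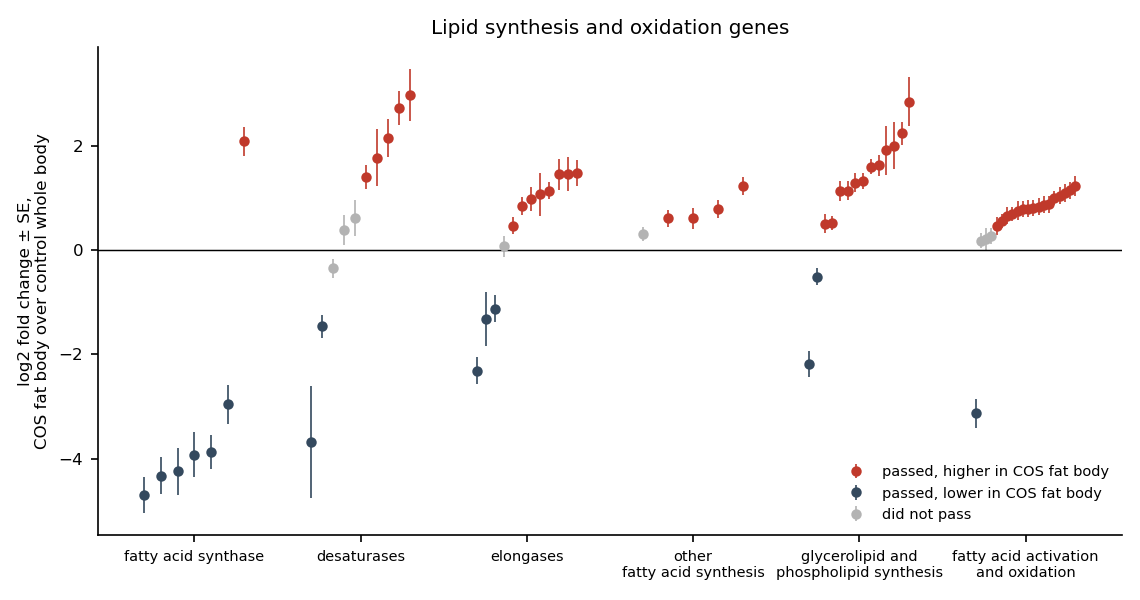
Log2 fold changes of COS fat body over control whole body with approximate SE for each tested gene of lipid synthesis and oxidation, sorted within families, with genes that did not pass in grey. A single fatty acid synthase lies above 0 (2.09) and 6 lie between -4.7 and -2.96, whereas the oxidation genes gather between 0.18 and 1.23 apart from 1 thioesterase at -3.13.

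Few sugar storage genes passed. Of the 6 genes of glycogen and trehalose metabolism, 1 passed as higher and 1 as lower. Trehalose-phosphate synthase (LOC659356), which makes the main sugar of insect hemolymph in the fat body, stood at 459, 404 and 443 CPM in COS fat body, against 317, 258 and 357 CPM in controls (log2 fold change 0.49 ± 0.19, adjusted p = 0.0482). Its groups did not overlap, but the call was lost without control replicate 1 or 2 or without any of the fat body replicates (log2 fold change 0.34 to 0.54, adjusted p 0.0689 to 0.192). Glycogen phosphorylase (LOC657406), which mobilises glycogen, stood at 342, 347 and 400.3 CPM in COS fat body, against 288, 279 and 260.4 CPM in controls and did not pass (log2 fold change 0.40 ± 0.28, adjusted p = 0.221). It passed as higher at a like difference in a fit of the 6 COS fat body and control libraries alone (0.39, adjusted p = 0.0239) and without tubule replicate 2 (0.40, adjusted p = 0.0228), which gave the list 2 higher genes. The trehalase LOC662782, which cleaves trehalose, fell, at 8.33, 7.9 and 9.86 CPM in COS fat body, against 15.4, 17.7 and 26.1 CPM in controls (log2 fold change -1.18 ± 0.24, adjusted p = 0.00284).

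The 36 tested genes named after the trehalose transporter Tret1, a large family of sugar carriers, had 13 higher and 12 lower, close to the shares of all genes. LOC655737, the most abundant of them, stood at 274, 297 and 271 CPM in COS fat body, against 62.9, 54.5 and 48.3 CPM in controls (log2 fold change 2.35 ± 0.15, adjusted p = 2.81e-05). LOC656011 fell, at 0.4, 0.284 and 0.608 CPM in COS fat body, against 7.0, 6.01 and 11 CPM in controls (log2 fold change -4.21 ± 0.40, adjusted p = 9.37e-05). Reads of these close relatives may have been divided among them in ways that are not given.

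In glycolysis, gluconeogenesis and the pentose phosphate pathway 9 genes rose and none fell of 16 (median 0.80); 13 rose and none fell over COS tubules. The count of 0 falls depended on the scaling: 1 gene passed as lower with RLE factors, 2 with DESeq2, and 3 with upper-quartile factors or library totals alone. 6-Phosphogluconate dehydrogenase (LOC660752), which yields NADPH in the oxidative pentose phosphate branch, stood at 347, 326 and 396 CPM in COS fat body, against 151, 142 and 132 CPM in controls (log2 fold change 1.33 ± 0.13, adjusted p = 0.000105). Transketolase (LOC660692), of the non-oxidative branch, rose by 0.80 ± 0.17. Hexokinase (LOC659227), which traps glucose, rose by 0.89 ± 0.21, a pyruvate kinase (LOC655824) by 1.26 ± 0.21, and fructose-1,6-bisphosphatase (LOC656164), specific to gluconeogenesis, by 0.80 ± 0.18. Pyruvate carboxylase (LOC662701), which replenishes oxaloacetate, was the most abundant gene of the list at 2281, 2678 and 4133 CPM in COS fat body, against 2534, 1965 and 2223 CPM in controls. The groups overlapped and it did not pass (log2 fold change 0.44 ± 0.22, adjusted p = 0.106), although it stood far above COS tubules (3.18 ± 0.24, adjusted p = 4.33e-06) and passed without fat body replicate 1 (0.61, adjusted p = 0.0319).

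Some members of these families were highest in the same library of each group as the testis markers, and did not pass. An enolase (LOC664168) stood at 167, 12.2 and 34.7 CPM in COS fat body, against 93.5, 134 and 334 CPM in controls (log2 fold change -1.39 ± 0.87, adjusted p = 0.171). Another pyruvate kinase (LOC657823) stood at 157, 16.4 and 48.5 CPM in COS fat body, against 164, 178 and 338 CPM in controls (log2 fold change -1.62 ± 0.70, adjusted p = 0.064). Fat body replicate 1 was far above replicates 2 and 3, and control replicate 3 above replicates 1 and 2, the same libraries in which sperm markers were highest within their group. Without fat body replicate 1 both passed as lower (-3.0, adjusted p = 0.00679, and -2.81, adjusted p = 0.00336), and 3 genes of the list then passed as lower in place of none.

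Of the 18 genes of pyruvate oxidation and the tricarboxylic acid cycle, 8 rose and 2 fell (median 0.22); 11 rose and none fell over COS tubules. Aconitase (LOC663732), the most abundant, stood at 2888, 3121 and 4379 CPM in COS fat body, against 2085, 1754 and 1860.2 CPM in controls (log2 fold change 0.87 ± 0.19, adjusted p = 0.00357). The NADP-linked isocitrate dehydrogenases, which also supply NADPH, rose most. The mitochondrial enzyme (LOC659013) stood at 1143, 1385 and 1761 CPM in COS fat body, against 603, 518 and 509 CPM in controls (log2 fold change 1.4 ± 0.21, adjusted p = 0.000586). The cytosolic one (LOC661014) stood at 95.6, 77.3 and 102 CPM in COS fat body, against 28.3, 22.1 and 29.4 CPM in controls (log2 fold change 1.79 ± 0.23, adjusted p = 0.000307). The larger of the falls, a pyruvate dehydrogenase E1 alpha gene (LOC655038), stood at 7.4, 0.909 and 2.36 CPM in COS fat body, against 11.9, 11.3 and 34.8 CPM in controls (log2 fold change -2.45 ± 0.82, adjusted p = 0.0253). It too was highest in control replicate 3 and, within COS fat body, in replicate 1. The number of lower genes in this list was 8 without fat body replicate 1 and 0 without fat body replicate 2, fat body replicate 3 or control replicate 3, and 8 rose in each of these cases. It was 4 with upper-quartile factors and 6 with library totals alone or DESeq2.

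Aromatic amino acid metabolism was the list with the largest share of higher genes among lists of more than 10 tested members. Of 13 genes 12 rose and none fell (median 1.5), all 12 without overlap between groups. The list took 0.24%, 0.269% and 0.32% of reads in COS fat body, against 0.101%, 0.0967% and 0.0693% in controls. Protein henna (LOC655392), the phenylalanine hydroxylase of insects, which forms tyrosine, stood at 379, 294 and 514 CPM in COS fat body, against 25.3, 28.2 and 25.6 CPM in controls (log2 fold change 3.9 ± 0.25, adjusted p = 2.81e-05). The lowest fat body library was far above the highest control. Over COS tubules the difference was 4.99 ± 0.26, adjusted p = 7.21e-07.

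The steps that follow in tyrosine breakdown were higher as well. Tyrosine aminotransferase (LOC659321) stood at 310.1, 374 and 479.7 CPM in COS fat body, against 138, 140.2 and 102 CPM in controls (log2 fold change 1.61 ± 0.36, adjusted p = 0.00408). 4-hydroxyphenylpyruvate dioxygenase (LOC662658), which forms homogentisate, stood at 1084, 1302 and 1562 CPM in COS fat body, against 345, 318 and 227 CPM in controls (log2 fold change 2.15 ± 0.35, adjusted p = 0.000942), the most abundant of the list. Homogentisate dioxygenase (LOC662314) stood at 203, 229.6 and 284 CPM in COS fat body, against 81.5, 62.2 and 51.8 CPM in controls (log2 fold change 1.88 ± 0.21, adjusted p = 0.000178). Maleylacetoacetate isomerase (LOC662347) rose by 1.5 ± 0.16. Every enzyme of this chain that the table lists was therefore higher in all 3 fat body libraries than in all 3 controls. Dopa decarboxylase (Ddc), which makes dopamine, rose by 1.68 ± 0.25. On the tryptophan side, tryptophan dioxygenase (V, vermilion), which opens the kynurenine pathway, stood at 77.8, 70.9 and 91 CPM in COS fat body, against 36.4, 41.3 and 34.9 CPM in controls (log2 fold change 1.09 ± 0.23, adjusted p = 0.00347). Kynurenine monooxygenase (Cn, cinnabar), the next oxidative step, stood at 9.2, 11.9 and 23.6 CPM in COS fat body, against 17.6, 17.5 and 15.4 CPM in controls and did not pass (log2 fold change -0.18 ± 0.32, adjusted p = 0.63). It stood at 185, 239 and 271 CPM in COS tubules and was lower in COS fat body than there (-3.96 ± 0.36, adjusted p = 1.06e-05). The 12 rises were called under each scaling and whichever replicate was left out, and Cn passed as lower without fat body replicate 3 (-0.67, adjusted p = 0.0337).

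**Figure D5:**
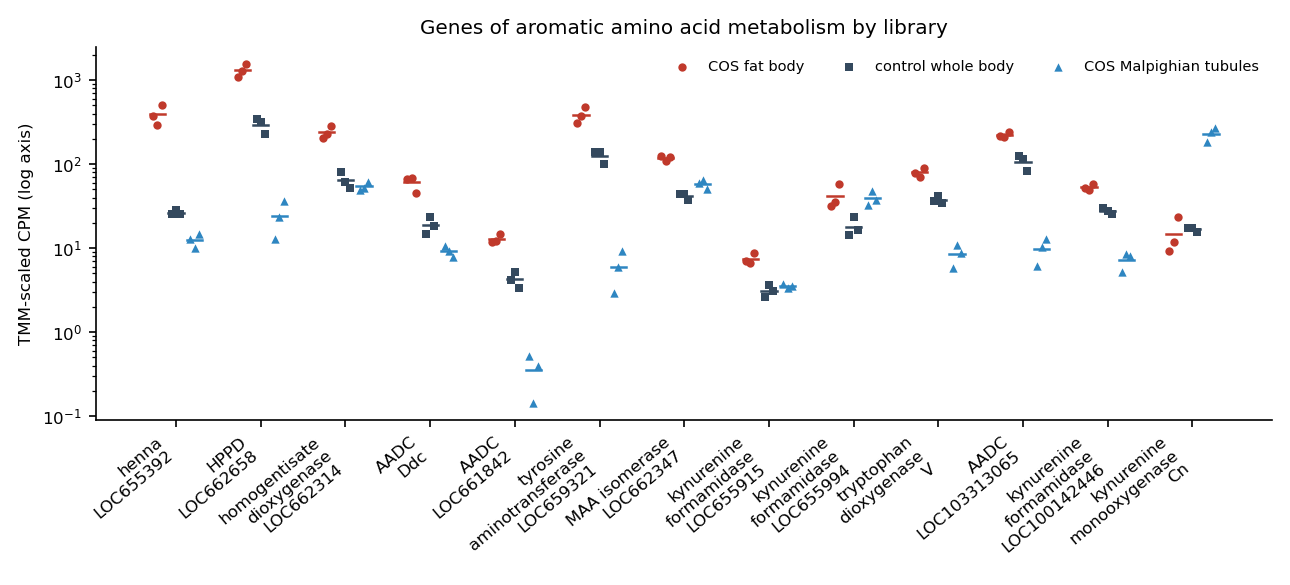
TMM-scaled CPM of the 13 genes of aromatic amino acid metabolism in each library, on a log axis, with bars at the group means of COS fat body, control whole body and COS Malpighian tubules (n = 3 each). In 12 genes all fat body points lie above all control points, whereas Cn overlaps between them and is highest in tubules.

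Among 42 other genes of amino acid metabolism 25 rose and 5 fell (median 0.64), and 29 rose and 7 fell over COS tubules. Leaving out 1 replicate moved the rises between 18 and 26, and the falls were 3 without control replicate 1 or 3 and 2 without fat body replicate 2. The most abundant served proline synthesis. Delta-1-pyrroline-5-carboxylate synthase (LOC658917), which turns glutamate toward proline, stood at 3357, 3944 and 5478 CPM in COS fat body, against 2607, 2258 and 2287 CPM in controls (log2 fold change 0.84 ± 0.23, adjusted p = 0.0101). Pyrroline-5-carboxylate reductase (LOC664343), which completes proline, rose by 1.1 ± 0.24. Proline dehydrogenase (LOC659689), which starts its breakdown, stood at 417, 335 and 355 CPM in COS fat body, against 408, 458 and 408 CPM in controls and did not pass (log2 fold change -0.20 ± 0.17, adjusted p = 0.291). In some other beetles proline made in the fat body is a known fuel of flight muscle.

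Phosphoserine aminotransferase (LOC663325) rose by 1.93 ± 0.39 and phosphoglycerate dehydrogenase (LOC663218) by 1.2 ± 0.17, both in serine synthesis. A glycine N-methyltransferase (LOC662371), which spends S-adenosylmethionine on glycine, had the largest rise of the list, at 8.93, 3.35 and 3.38 CPM in COS fat body, against 0.13, 0.19 and 0.251 CPM in controls (log2 fold change 4.72 ± 0.55, adjusted p = 0.000204). It is a gene of low level, with 9 counts over the 3 controls. Cytosolic branched-chain amino acid aminotransferase (LOC662431) rose by 1.34 ± 0.19, threonine ammonia-lyase (LOC659253) by 1.1 ± 0.17 and arginase (LOC655366) by 1.28 ± 0.21. Lower was histidine ammonia-lyase (LOC664601, -1.08 ± 0.17), which opens histidine breakdown. Also lower was alpha-aminoadipic semialdehyde synthase (LOC660388), which opens that of lysine, at 19.8, 31.3 and 71 CPM in COS fat body, against 119, 92.6 and 91.8 CPM in controls (log2 fold change -1.31 ± 0.42, adjusted p = 0.0204). LOC660388 did not pass with control replicate 1 or fat body replicate 2 left out (-1.18 and -1.16, adjusted p = 0.0576 and 0.0639).

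Sulfur amino acid and one-carbon genes had 5 higher and 2 lower of 12. The most abundant, cytosolic C-1-tetrahydrofolate synthase (LOC656820), which interconverts folate one-carbon units, did not pass (log2 fold change 0.17 ± 0.26, adjusted p = 0.57). Glutathione synthetase (LOC656361), the last step to the antioxidant glutathione, stood at 10.9, 7.1 and 13.3 CPM in COS fat body, against 1.3, 1.33 and 1.32 CPM in controls (log2 fold change 2.98 ± 0.41, adjusted p = 0.000423). Homocysteine S-methyltransferase 1 (LOC660474), which forms methionine, fell by 0.90 ± 0.29 (adjusted p = 0.0205), a call lost without control replicate 3, fat body replicate 2 or fat body replicate 3 (-0.88 to -0.61, adjusted p 0.0578 to 0.0873).

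Purine and urate genes had 3 higher and 3 lower of 14. The most abundant, the bifunctional enzyme of the last steps to inosinate (PURH, LOC656241), did not pass (log2 fold change 0.23 ± 0.24, adjusted p = 0.393). The rises included amidophosphoribosyltransferase (LOC656545), the committed step of purine synthesis, at 303, 358 and 539 CPM in COS fat body, against 157, 141 and 125 CPM in controls (log2 fold change 1.5 ± 0.28, adjusted p = 0.00174). The falls included an adenosine deaminase-like gene (LOC657502, -1.77 ± 0.25). Sterol and isoprenoid genes, juvenile hormone enzymes included, had 6 higher and 3 lower of 11. Niemann-Pick C1 protein (LOC655972), which moves sterol out of lysosomes, rose by 1.0 ± 0.17, and 3-hydroxy-3-methylglutaryl-CoA reductase (LOC662673), of isoprenoid synthesis, by 0.87 ± 0.17. Of the juvenile hormone epoxide hydrolases, which inactivate the hormone, Tcjheh-r5 rose by 1.21 ± 0.22 and Tcjheh-r1 fell, at 0.866, 1.65 and 3.31 CPM in COS fat body, against 10.3, 12.5 and 38.3 CPM in controls (log2 fold change -3.39 ± 0.70, adjusted p = 0.00288).

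Few genes of the secretory machinery were higher in COS fat body. Of 21 genes of the secretory pathway and endoplasmic reticulum chaperones, 2 rose and 9 fell (median -0.48), and over COS tubules none rose and 18 fell (median -1.71). A translocon-associated protein delta gene (LOC663710), part of the protein-import channel of the endoplasmic reticulum, stood at 5.13, 4.77 and 4.79 CPM in COS fat body, against 20.8, 20.4 and 17.4 CPM in controls (log2 fold change -2.0 ± 0.16, adjusted p = 5.77e-05). A second gene with that description (LOC658171) stood at 45.8, 60.9 and 63.9 CPM in COS fat body, against 38.1, 37.8 and 37 CPM in controls (log2 fold change 0.60 ± 0.20, adjusted p = 0.0253). It did not pass with any one of the controls, fat body replicate 2 or fat body replicate 3 left out (log2 fold change 0.51 to 0.65, adjusted p 0.0588 to 0.0831). The MANF homolog (LOC660302), a secreted protein of the endoplasmic reticulum stress response, fell by 1.25 ± 0.16 (adjusted p = 0.000309). Transport and Golgi organization protein 1 (LOC656875), which loads bulky cargo into vesicles, was the most abundant and did not pass (log2 fold change -0.54 ± 0.29, adjusted p = 0.119), but passed as lower without fat body replicate 1 (-0.77, adjusted p = 0.0441). The list had 4 rises without fat body replicate 1 and 0 without any one of the other fat body or control replicates.

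Secreted serine proteases and their inhibitors had 22 higher and 8 lower of 44 (median 0.59), with 5 lower without control replicate 1 or 2 or fat body replicate 2 or 3. Serpins, which trap proteases of the clotting, melanisation and Toll cascades, had 11 higher and 4 lower of 21. Alaserpin LOC663001, the most abundant member, stood at 944, 972 and 750.4 CPM in COS fat body, against 408, 421 and 387 CPM in controls (log2 fold change 1.13 ± 0.24, adjusted p = 0.00324). A second alaserpin (LOC663238) stood at 122, 123 and 123 CPM in COS fat body, against 42.2, 39.8 and 35.2 CPM in controls (log2 fold change 1.65 ± 0.14, adjusted p = 7.02e-05). Antichymotrypsin-2 (LOC662831), also a serpin, rose by 2.21 ± 0.26. Serine protease inhibitor 3/4 (LOC658628) fell, at 5.46, 0.625 and 1.89 CPM in COS fat body, against 7.65, 6.01 and 20.1 CPM in controls (log2 fold change -2.09 ± 0.79, adjusted p = 0.0407), with fat body replicate 1 and control replicate 3 the highest of their groups, and the call was lost without control replicate 3, fat body replicate 2 or fat body replicate 3 (-1.9 to -1.37, adjusted p 0.0873 to 0.137). Among the proteases, named after the easter, snake and persephone proteases that activate Toll in Drosophila or after venom proteases, 10 rose and 2 fell of 20. An easter-like gene (LOC107399226) stood at 58.2, 69.9 and 49.1 CPM in COS fat body, against 15.2, 11.3 and 11.8 CPM in controls (log2 fold change 2.21 ± 0.25, adjusted p = 0.000178). Persephone (LOC663186) rose by 1.37 ± 0.23. Serpins are a family of close copies, and how shared reads were counted is not given.

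Iron and metal proteins had 2 higher and 2 lower of 9 (1 lower without control replicate 3). Ferritin heavy chain (LOC655492), which insects also secrete as an iron carrier, varied little in COS fat body, at 2868, 2856 and 2764 CPM in COS fat body, against 1774, 1619 and 1304 CPM in controls (log2 fold change 0.85 ± 0.16, adjusted p = 0.00188). A transferrin (LOC659207) fell, at 33.1, 43.3 and 37.1 CPM in COS fat body, against 74.3, 69.1 and 102 CPM in controls (log2 fold change -1.12 ± 0.26, adjusted p = 0.00487).

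Of 45 immune genes 27 rose and 8 fell (median 1.04; 5 fell without fat body replicate 3). Scavenger receptors, CD36-like proteins that bind lipids and microbes, had 8 higher and none lower of 10. The scavenger receptor LOC656441 stood at 602, 1303 and 1568 CPM in COS fat body, against 157, 307 and 179 CPM in controls (log2 fold change 2.43 ± 0.40, adjusted p = 0.000964). A class B receptor (LOC656947) stood at 194, 251 and 291 CPM in COS fat body, against 40.5, 41.2 and 34.8 CPM in controls (log2 fold change 2.66 ± 0.26, adjusted p = 9.61e-05). Fat body replicate 1 was the lowest of its group for both and still above every control. Of the Toll pathway, genes chosen after their values were seen are named. A protein toll (LOC656158), its receptor, rose by 1.56 ± 0.20, Cactus (Cact), the inhibitor that holds Dorsal in the cytoplasm, by 1.33 ± 0.13, and Dorsal (Dl), its transcription factor, by 1.16 ± 0.15. Hemocyte markers were higher in the same libraries, as given above, and their part in these rises was not tested.

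Both coleoptericins and a cecropin were lower. Coleoptericin-like LOC103314751, an antibacterial peptide of beetles, stood at 0.133, 0.398 and 0.203 CPM in COS fat body, against 4.54, 11.1 and 2.69 CPM in controls (log2 fold change -4.57 ± 1.17, adjusted p = 0.00796). Cecropin 2 (cec2), which lyses bacteria, stood at 2.33, 1.99 and 1.35 CPM in COS fat body, against 22.7, 5.51 and 5.26 CPM in controls (log2 fold change -2.56 ± 0.79, adjusted p = 0.0187), with control replicate 1 above the other two. It did not pass with control replicate 1 or fat body replicate 3 left out (-1.51 and -2.37, adjusted p = 0.0822 and 0.0643). Of 4 lysozymes, which cut bacterial cell walls, 3 rose and 1 fell, the last being Lyz at 90.6, 128 and 159 CPM in COS fat body, against 287, 279 and 267 CPM in controls (log2 fold change -1.14 ± 0.21, adjusted p = 0.00148). Tenecin-3 (LOC662738), an antifungal protein in the mealworm, rose, at 3629, 3982 and 4315 CPM in COS fat body, against 2118, 2177 and 1408 CPM in controls (log2 fold change 1.06 ± 0.25, adjusted p = 0.0053).

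Nutrient signalling had 8 higher and 3 lower of 14 (median 0.73). The adipokinetic hormone receptor (Akhr), through which the hormone mobilises fat body lipid and sugar, stood at 225, 232 and 216 CPM in COS fat body, against 57.7, 55.9 and 43.8 CPM in controls (log2 fold change 2.1 ± 0.20, adjusted p = 8.87e-05). The 3 fat body libraries lay close together and far above the highest control. Over COS tubules the difference was 2.97 ± 0.21, adjusted p = 2.88e-06. The hormones themselves, made in neurosecretory cells outside the fat body, were lower. Akh2 stood at 0.666, 0.284 and 0.405 CPM in COS fat body, against 6.48, 6.26 and 4.01 CPM in controls (log2 fold change -3.62 ± 0.38, adjusted p = 0.00013). Akh1 fell by 1.13 ± 0.33 (adjusted p = 0.0145), which did not pass without fat body replicate 3 (-0.91, adjusted p = 0.0524). Receptor and ligand thus went in opposite directions. Of the insulin pathway, the insulin-like receptor (LOC661524) rose by 1.04 ± 0.19, and insulin receptor substrate 1 (LOC103313904) by 1.41 ± 0.19. Forkhead box O (LOC664090), the transcription factor that insulin restrains, rose by 1.22 ± 0.16, and the translation repressor 4E-binding protein (LOC663803), a target of it in Drosophila, by 1.06 ± 0.18. Sestrin (LOC664359), a stress-induced inhibitor of TOR signalling, stood at 516, 619.8 and 622 CPM in COS fat body, against 271, 303 and 316 CPM in controls (log2 fold change 0.98 ± 0.16, adjusted p = 0.00086). Insulin-like peptide 7 (LOC664355) fell, at 0.8, 0.511 and 0.473 CPM in COS fat body, against 3.11, 2.85 and 2.51 CPM in controls (log2 fold change -2.24 ± 0.58, adjusted p = 0.00873).

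Of 9 transcription regulators known from fat body, 6 rose and none fell (median 1.03), and 1, the retinoid X receptor homolog (LOC661886), passed as lower without fat body replicate 1, with library totals alone or with DESeq2. The sterol regulatory element-binding protein (LOC663039), which drives lipid synthesis genes in Drosophila, stood at 171, 221 and 230.1 CPM in COS fat body, against 67.1, 70.1 and 69.9 CPM in controls (log2 fold change 1.59 ± 0.16, adjusted p = 9.61e-05). Ecdysone-induced protein 75B (LOC660005), a nuclear receptor of the ecdysone response, stood at 305, 308 and 324 CPM in COS fat body, against 124, 125 and 118 CPM in controls (log2 fold change 1.35 ± 0.19, adjusted p = 0.000501). The ecdysone receptor (Ecr) rose by 1.27 ± 0.32 and CCAAT/enhancer-binding protein (LOC655869), a regulator of metabolic genes, by 1.03 ± 0.22. Groups did not overlap for any of these.

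Fat body is also a site of detoxification. P450s, which oxidise lipophilic compounds, had 40 higher and 19 lower of 74. The most abundant, Cyp9f2, rose by 1.15 ± 0.25, and P450 6k1 (LOC659136) stood at 361, 229 and 225 CPM in COS fat body, against 19.7, 19.6 and 15.7 CPM in controls (log2 fold change 3.89 ± 0.30, adjusted p = 4.42e-05). The largest fitted fall was that of P450 6a20 (LOC658506), with 0.133, 0 and 0.135 CPM in COS fat body, against 8.55, 9.94 and 3.32 CPM in controls. Glutathione S-transferases, which conjugate glutathione to toxicants, had 5 higher and none lower of 11 (3 higher without control replicate 3 and fat body replicate 1 together), led by LOC659302 at 702, 483 and 411 CPM in COS fat body, against 193, 161 and 129 CPM in controls (log2 fold change 1.73 ± 0.26, adjusted p = 0.000605). UDP-glucuronosyltransferases, which add sugars to them, had 10 higher and 7 lower of 24. Of these LOC660290 rose by 1.14 ± 0.19 and LOC660739 by 2.73 ± 0.25, and LOC661391 fell by 2.01 ± 0.36. Of 6 peroxiredoxin, catalase and superoxide dismutase genes 2 rose and 2 fell, with a catalase (LOC655157), which breaks down hydrogen peroxide, at 0.90 ± 0.14 and peroxiredoxin-6 (LOC659242) at -1.53 ± 0.17. Cyp4g14, a P450 of the same subfamily as Cyp4g7, had the largest fall by difference in CPM among described genes past the test, at 306, 219 and 338 CPM in COS fat body, against 4816, 3381 and 3195 CPM in controls (log2 fold change -3.72 ± 0.29, adjusted p = 4.63e-05).

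Of the 5467 listed genes, 4140 had a description, and only these were ranked here. Ranked per deposited gene length, the 10 most abundant described genes of COS fat body by mean FPKM were 8 genes of the mitochondrial genome, tenecin-3 (LOC662738) and histidine-rich glycoprotein (LOC655786). The gene lengths behind FPKM and TPM were 482 bases for tenecin-3 and 21194 bases for Akhr. The longer ones appear to be spans on the genome rather than of transcripts, so this ranking favours compact genes. Tenecin-3 averaged 7727 ± 630.4 FPKM in COS fat body and 4444 ± 1122 FPKM in controls (SD, n = 3 each). Histidine-rich glycoprotein stood at 3902, 4471 and 4308 CPM in COS fat body, against 774, 886 and 742 CPM in controls (log2 fold change 2.4 ± 0.14, adjusted p = 2.62e-05). Its difference over COS tubules was 6.22 ± 0.17, adjusted p = 1.4e-07. Cytochrome c oxidase subunit I (KEF75_p12), the most abundant, did not pass (log2 fold change 0.28 ± 0.17, adjusted p = 0.174), but passed as higher with RLE factors or DESeq2 (0.47 with both, adjusted p = 0.0282 and 0.0359). Subunit II (KEF75_p11) rose by 0.86 ± 0.18. Cytochrome b (KEF75_p02), cytochrome c oxidase subunit III (KEF75_p08), ATP synthase subunit 6 (KEF75_p09) and NADH dehydrogenase subunits 5 (KEF75_p06), 4 (KEF75_p05) and 2 (KEF75_p13) did not pass (-0.49 to 0.29). Of these, KEF75_p02 passed as higher with RLE factors or DESeq2 (0.48 with both, adjusted p = 0.0335 and 0.0432), and KEF75_p05 as lower with library totals alone (-0.75, adjusted p = 0.0298) or with the replicate number as a block (-0.52, adjusted p = 0.0233). Below these, NADH dehydrogenase subunit 1 (KEF75_p01) fell, at 2938, 3208 and 2384 CPM in COS fat body, against 4664, 6927 and 5204 CPM in controls (log2 fold change -0.98 ± 0.25, adjusted p = 0.00729). By difference in mean CPM, the 10 largest rises among described genes held 5 muscle markers: paramyosin (LOC659309), titin (LOC660533, 1.54 ± 0.14), twitchin (LOC660154, 2.24 ± 0.17), the muscle LIM protein Mlp84B (LOC663031, 1.6 ± 0.14) and myosin heavy chain (LOC659358) at 7924, 7433 and 9907 CPM in COS fat body, against 2957, 2899 and 2934 CPM in controls (log2 fold change 1.52 ± 0.15, adjusted p = 0.000111). The others were vitellogenin LOC660042, apolipophorins LOC663181, histidine-rich glycoprotein, cytochrome c oxidase subunit II and the calcium pump of the sarcoplasmic or endoplasmic reticulum (LOC658328, 1.67 ± 0.12).

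The 10 largest falls among described genes held Cyp4g14, fatty acid synthases LOC662899 and LOC659179, and the aminopeptidase N-like protein (LOC661831). They also held troponin C (LOC659336) and NADH dehydrogenase subunit 1 (KEF75_p01), all given above. A cathepsin L (LOC659502), a lysosomal and digestive protease, stood at 558, 648 and 303 CPM in COS fat body, against 1960.1, 1495 and 1207 CPM in controls (log2 fold change -1.63 ± 0.33, adjusted p = 0.00268). A ubiquitin-60S ribosomal protein L40 gene (LOC656930) fell by 1.17 ± 0.18. A heterogeneous nuclear ribonucleoprotein C gene (LOC103314137) stood at 783, 93.7 and 261 CPM in COS fat body, against 1353, 1113 and 1998 CPM in controls (log2 fold change -1.97 ± 0.70, adjusted p = 0.0315). The kinase dst2 (LOC103313870) fell by 1.84 ± 0.70 (adjusted p = 0.0424). Both were highest in fat body replicate 1 and control replicate 3 within their groups. The call of LOC103314137 was lost without control replicate 1, control replicate 3 or fat body replicate 3 (-2.04 to -1.72, adjusted p 0.0523 to 0.0984). That of LOC103313870 was lost without any control replicate or without fat body replicate 2 or 3 (-2.02 to -1.37, adjusted p 0.0526 to 0.123). On the authors' TPM scale, vitellogenin LOC660042 averaged 3002 ± 944 TPM in COS fat body and 209 ± 71.5 TPM in controls (SD, n = 3 each). Ferritin heavy chain (LOC655492) averaged 1942 ± 65.9 TPM in COS fat body and 1181 ± 176 TPM in controls, and 4-hydroxyphenylpyruvate dioxygenase (LOC662658) 933 ± 201 TPM in COS fat body and 229.6 ± 46.3 TPM in controls (SD, n = 3 each).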

How the data were processed

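RNA-seq reads were trimmed with Trimmomatic 0.32, per the submitters' processing notes, and aligned to assembly Tcas5.2, per the labels' protocols; the counting program is not given in the sources used here. Per the file headers, the deposited table holds for each gene and library an expected count (whole numbers throughout), a normalized signal (counts divided by a size factor), FPKM and TPM, beside log2 fold changes that the authors computed between groups. Gene names and descriptions are those of the deposited annotation.

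Each library total was recovered as the count of a gene × 10 to the 9th power / (FPKM × gene length in bases) and replaced the sum of the listed genes as library size. Expected counts of the 9 libraries entered 1 edgeR 4.0.16 fit (R 4.3.3) with TMM factors, the filterByExpr filter (109 genes removed, 5358 tested), a term for each of the 3 groups and no covariate. The quasi-likelihood F test was adjusted by Benjamini-Hochberg and called at 0.05. The approximate SE is the size of the fitted log2 difference over the root of its F statistic. The fit was checked on simulated counts in which a small set of genes was changed in fat body and the rest were equal. In these data 69.1% of the genes tested passed, so the simulation does not check the scaling under so many differences. Alternatives were RLE, upper-quartile and the authors' size factors, library totals alone, DESeq2 1.42.0, no filter, the 6 libraries alone, a replicate block, a fold threshold and leaving out replicates.

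The 37 gene lists came from text patterns on the descriptions (36 written first, 1 added), with 159 members removed and 21 added on reading the descriptions. Members and lists were chosen with earlier results of these data known. The genes named by rule (101) include the most abundant member of each list. Lists not of another tissue also give their largest rise and fall among called genes of at least 5 CPM in the higher group. The rest are the 10 described genes of highest FPKM in COS fat body. To these are added the 10 largest differences in CPM in each direction among described genes past the test. The other genes named were chosen after their values were seen. Members with near-identical copies (fatty acid synthases, desaturases, elongases, Tret1 transporters, serpins, vitellogenins, lipases) may share reads. No per-sample column was left unused.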

Additional observations from a re-analysis of the deposited data

How the results depend on the processing

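The counts of genes called kept within 1.5 times their main values (1726 higher, 1978 lower) under every alternative but one: where a log2 difference of 1 or more was also required, 1066 were higher and 1649 lower. That requirement left 5 of 16 higher genes in fatty acid oxidation, 13 of 25 in other amino acid metabolism and 4 of 9 in glycolysis and related pathways. It left 2 of 8 in the tricarboxylic acid cycle list, 3 of 6 among sterol genes and 5 of 8 in nutrient signalling. Other lists lost calls as well. Other scalings shifted the median log2 fold change of all genes by 0.20 (RLE), 0.16 (authors' size factors), -0.13 (upper quartile) and -0.26 (library totals alone). The share of calls that were upward was 46.6% in the main analysis and 35.99% with library totals alone (1349 higher, 2399 lower), with 51.8% the highest (authors' size factors). Leaving out 1 replicate gave 1488 to 1806 higher and 1516 to 2139 lower genes. Same-numbered COS fat body and control libraries showed no common pattern: their deviations from group means correlated at -0.37, 0.39 and 0.015. A fit with the number as a replicate block called 1616 higher and 1851 lower. With 3 libraries in each group, these values cannot exclude that replicate numbers pair the libraries.

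Of the genes named, 7 changed sign under an alternative, none of them past the test in the main analysis. Kynurenine monooxygenase (Cn) was at 0.056 with RLE factors and with DESeq2, between -0.67 and 0.075 with 1 replicate left out, and at 0.014 with control replicate 3 and fat body replicate 1 both left out. LOC656820 was at -0.092 with library totals alone and between -0.14 and 0.37 with 1 replicate left out, and LOC656241 at -0.037 with library totals alone. Of mitochondrial genes, KEF75_p08 was at 0.13 with RLE factors and DESeq2, 0.096 with the authors' size factors and between -0.12 and 0.00030 with 1 replicate left out. KEF75_p06 was at 0.055 with RLE factors and DESeq2 and 0.026 with the authors' size factors, KEF75_p09 at -0.021 with upper-quartile factors and -0.15 with library totals alone, and KEF75_p13 at -0.0013 with library totals alone. The cause was not tested. Other scalings and tools also moved calls of named genes with no change of sign. LOC660474, LOC660540 and LOC664032 did not pass with RLE factors or DESeq2, LOC660388 and LOC661831 with RLE factors, LOC661831, LOC660540 and LOC664032 with the authors' size factors, LOC659356, LOC658171 and LOC658362 with upper-quartile factors or library totals alone, and LOC657686 with library totals alone. Beside the genes whose added calls are given with their values above, LOC657823 and LOC662898 passed as lower with upper-quartile factors, library totals alone or DESeq2, LOC657823 also with RLE factors, LOC656875 with upper-quartile factors or library totals alone, LOC661886 with library totals alone or DESeq2 and LOC659689 with library totals alone, while LOC662701 passed as higher with the authors' size factors. With the 6 compared libraries alone or without tubule replicate 1 or 2, LOC658628 and LOC103313870 did not pass, nor did LOC659356 without tubule replicate 1 or LOC658628 under the replicate block. Of the lists, testis markers had 23 lower genes with upper-quartile factors and 25 with library totals alone or DESeq2 against 14 in the main analysis, other amino acid genes 10 lower with library totals alone against 5, oenocyte markers 5 higher with library totals alone against 8, and secretory pathway genes 0 higher with upper-quartile factors or library totals alone and 4 with the authors' size factors or DESeq2 against 2. With 3 libraries in each group and a table of genes selected on them, small differences and low counts are the least certain.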
